A study of Saccharomyces cerevisiae with 8 samples.

Results

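Described here are the genes of the yeast translation machinery other than the ribosome itself: initiation, elongation and termination factors, the cytosolic aminoacyl-tRNA synthetases and their cofactor Arc1. Genes were chosen by name, from 49 listed symbols and from the numbered TIF symbols (without TIF6) and TEF symbols, and only spots with exactly 1 gene symbol in the platform annotation were taken. This gave 40 spots of 35 genes out of 6216 spots in all, of which 3344 had 1 symbol. The 35 genes comprise 22 factor genes and 13 genes of synthetases or Arc1, and 5 of them had 2 spots, which were averaged. Of the 49 listed symbols, 19 were not analysed here because no spot carried them alone, among them EFT1, EFT2, YEF3, HYP2 and SUP35.

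The arrays compared a strain deleted for SUB1 with the wild-type strain yPH500 of budding yeast, Saccharomyces cerevisiae. SUB1 encodes a transcription coactivator related to human PC4. Both strains were grown in YPD at exponential phase and sampled untreated, or 1 h after addition of the mutagen 4NQO (4-nitroquinoline 1-oxide), for which the labels give 1 µg/µl. The labels do not describe the deletion allele further, and no treated sample was set against an untreated one on the same array. On each of the 8 arrays the strains were labelled with different dyes and hybridised together, so every value below is a log2 ratio of sub1Δ over wild type, and 1 unit is a factor of 2. A condition had 2 independent experiments, each hybridised in both dye orientations. The mean of such a pair is 1 value, and n is 2 experiments. The p-values come from limma's moderated test, which takes most of a gene's spread from all features (prior degrees of freedom 16.8). The SD printed after ± is therefore not the spread that the p-value beside it measures. With 4NQO, SUP45 had an SD of 0.02 and a standard error of 0.58, and ILS1 3.30 and 0.79. The number of arrays limits the precision.

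A ratio within an array shows which strain held more of a transcript, not how much of it there was, and the treated samples were also 1 h older. SUB1 had no spot with its name alone, so the deletion was not checked on the arrays, and the direction of every ratio rests on the dye labels. The arrays held values for 2982 to 5950 spots, fewest on the swapped array of 4NQO experiment 2, and no source used here says why a value is missing.

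Translation starts when initiation factors bring the initiator tRNA, the small ribosomal subunit and the capped mRNA together. eIF2 carries the initiator tRNA and is recharged by eIF2B, eIF1 and eIF1A govern the choice of the start codon, eIF3 holds the complex together, and the eIF4 group binds the cap. Elongation factors then drive the ribosome along the mRNA, release factors end the chain, and aminoacyl-tRNA synthetases charge each tRNA with its amino acid. In yeast, many of these genes are regulated with the ribosomal protein genes according to growth, and several synthetase genes are targets of the activator Gcn4.

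Across the 35 genes the ratios leaned toward sub1Δ on the arrays of untreated experiment 1 and on all 4NQO arrays, and did not on those of untreated experiment 2. In untreated experiment 1 the median ratio of these genes was 0.48 on the unswapped and 0.94 on the swapped array, where the medians of all features were -0.13 and -0.19. In untreated experiment 2 the medians were -0.06 and 0.00, against 0.01 and -0.07 for all features. The 2 untreated experiments thus differed in level, and 26 of the 32 genes with both values were higher in experiment 1. With 4NQO the medians were 0.77 and 1.59 in experiment 1 and 0.78 and 0.72 in experiment 2, while all features had medians between -0.64 and -0.14. The translation genes lay above the median of all features by 0.91 to 2.06 on the 4NQO arrays and by -0.07 to 1.13 on the untreated arrays. The plot of medians and quartiles by array shows this shift beside that of all features, and the map of the 35 genes shows which of them carry it.

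**Figure D1:**
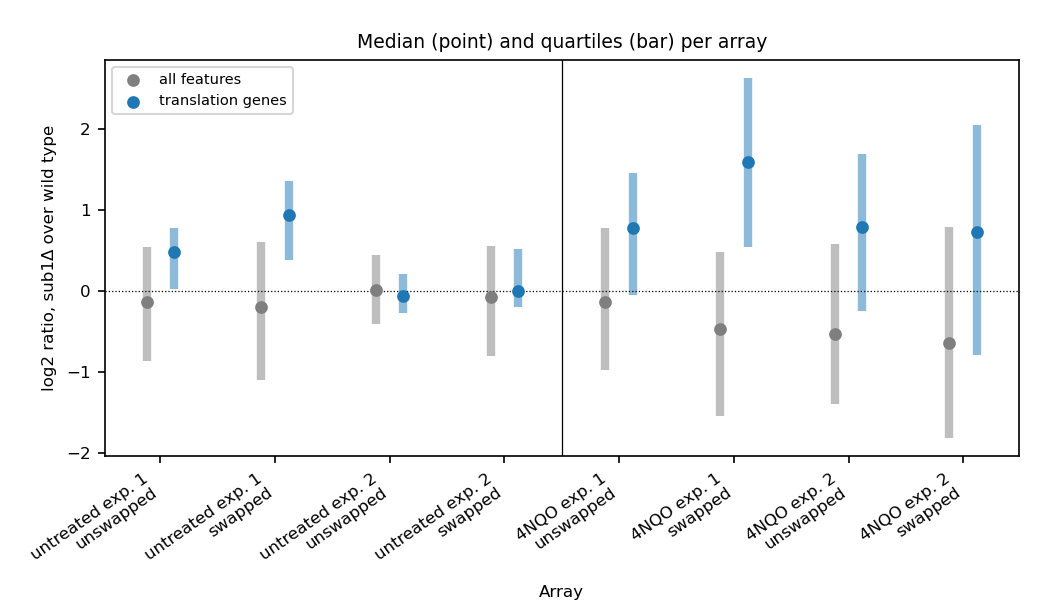
Median (point) and interquartile range (bar) of the log2 ratio of sub1Δ over wild type on each of the 8 arrays, for the translation genes (blue) and for all features (grey). The blue medians lie between 0.72 and 1.59 on the 4NQO arrays, where the grey medians lie between -0.64 and -0.14.

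**Figure D2:**
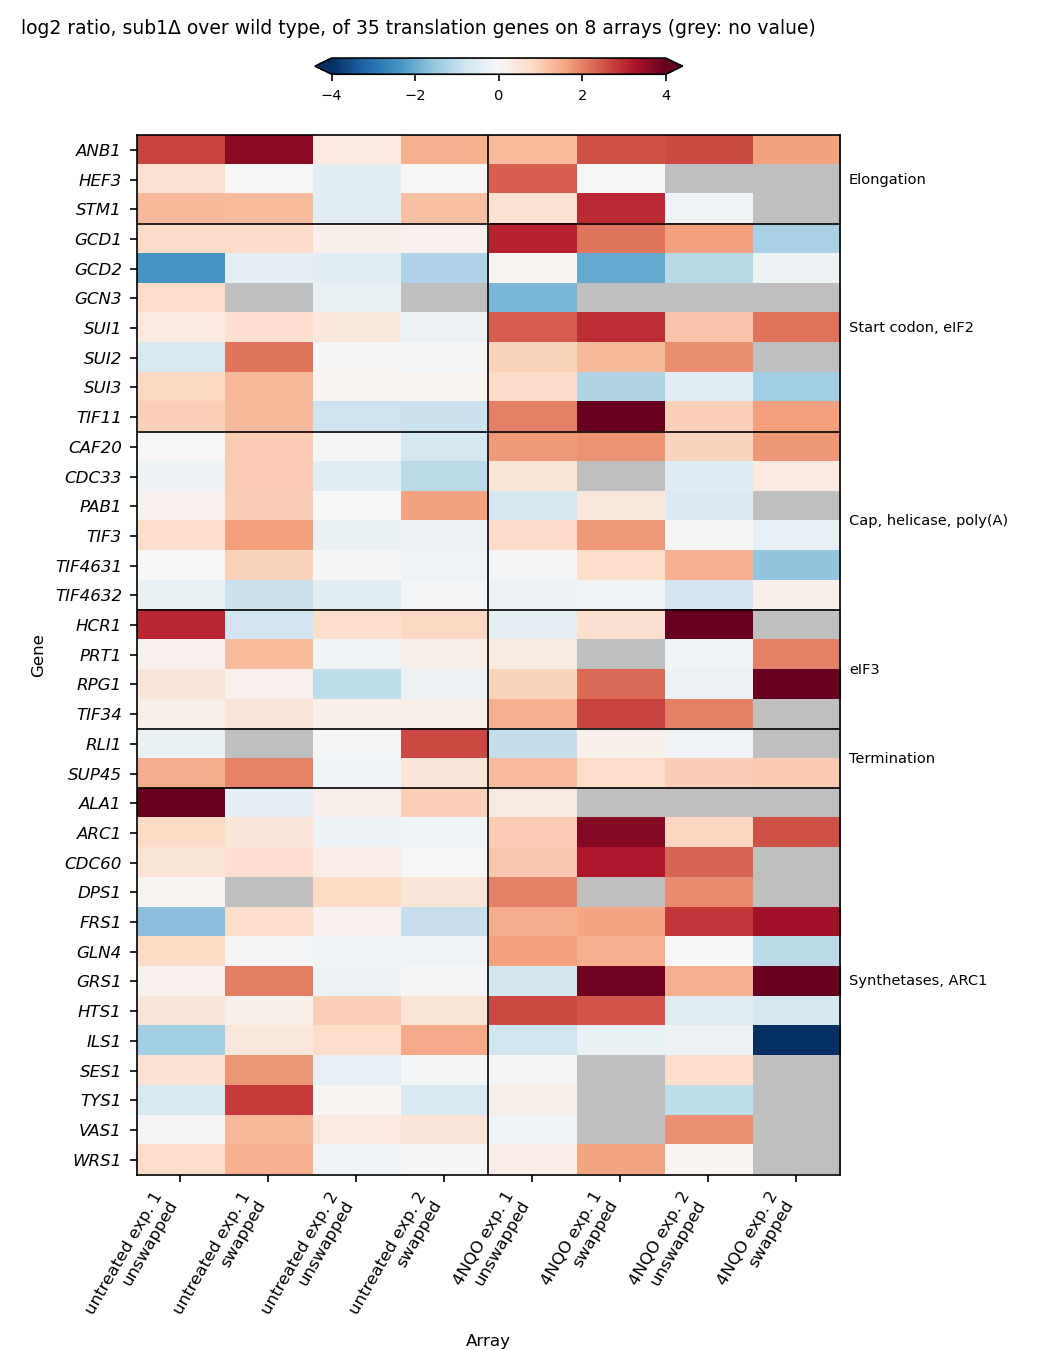
Log2 ratio of sub1Δ over wild type for the 35 genes (rows, grouped by role) on the 8 arrays (columns), with red above 0, blue below 0, grey for no value and colours saturating at 4 and -4. ANB1 is red on all 8 arrays, and the single darkest blue cell is ILS1 at -10.2 on the swapped array of 4NQO experiment 2.

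The first comparison asked whether the strains differed before treatment. None of the 32 translation genes tested passed limma's moderated test at an adjusted p of 0.05 in either direction, where 0% of the 3457 features tested were called higher and 0.0289% lower. Unadjusted p-values under 0.05 were reached by 2 of the 32 genes, ANB1 and ALA1, both with higher ratios. The median ratio of the 32 genes was 0.38 and 27 of them (84.4%) lay above 0, whereas the median of all features tested was 0.02 and 50.8% lay above 0.

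ANB1 encodes the isoform of eIF5A that is made when oxygen is scarce, the aerobic isoform being encoded by HYP2. In untreated cells its ratio was 2.72 and 3.60 on the 2 arrays of experiment 1 and 0.40 and 1.42 on those of experiment 2. All 4 arrays were above 0, and experiment 1 stood higher than experiment 2. The mean was 2.03 ± 1.59 (SD, n = 2), which did not pass (adjusted p = 0.328). With each condition fitted alone, or without either 4NQO experiment, which leaves the same spread for this test, ANB1 passed narrowly (adjusted p = 0.0487). ANB1 and HYP2 are so alike in sequence that a spotted open reading frame may not tell their transcripts apart.

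ALA1, the alanyl-tRNA synthetase gene, had a mean of 1.70 ± 1.57 in untreated cells (adjusted p = 0.557), but its values were 6.00 and -0.39 on the arrays of experiment 1 and 0.21 and 0.95 on those of experiment 2. Only the unswapped array of experiment 1 stood apart, and without it the partner array at -0.39 is the value of that experiment. The other synthetase genes tested ranged from -0.43 for FRS1 to 0.57 for VAS1, and Arc1's gene was at 0.24. Among the factors, SUP45, which encodes the release factor that reads stop codons, was at 0.97 ± 1.09, HCR1, an eIF3-associated factor gene, at 0.94 ± 0.25, and STM1, whose product binds inactive ribosomes, at 0.83 ± 0.62 (adjusted p = 0.931, 0.934 and 0.943). The arrays of HCR1 read 3.01 and -0.77 in experiment 1 and 0.70 and 0.82 in experiment 2, so its small SD hides a swap whose arrays lay on opposite sides of 0. SUI3, PAB1, TIF3 and PRT1, of eIF2, poly(A) binding, eIF4B and eIF3, were at 0.58 ± 0.71, 0.69 ± 0.17, 0.47 ± 0.99 and 0.39 ± 0.48. PAB1 was above 0 on all 4 arrays, and so was SUI3 as the mean of its 2 spots. In experiment 2 the SUI3 spots read -0.22 and 0.35 on the unswapped and -0.18 and 0.35 on the swapped array. The lowest ratio was that of GCD2, a subunit gene of eIF2B, at -1.11 ± 0.39 (adjusted p = 0.867), with all 4 arrays between -2.37 and -0.40.

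The second comparison asked whether the strains differed after 4NQO. Of the 18 translation genes with a value on all 4 arrays of that condition, 7 were called higher in sub1Δ and 1 lower in limma's moderated test, and 10 did not pass. Over the 2194 features tested, 9.07% were called higher and 10.4% lower, so the share of these genes called higher was 38.9% and the share called lower 5.56%. The genes called higher were SUI1 and TIF11 of start codon selection, RPG1 of eIF3, ANB1, and FRS1, GRS1 and ARC1 of tRNA charging, at 4.00-fold to 4.97-fold. The gene called lower was ILS1. The median ratio of the 18 genes was 1.20 and 14 of them lay above 0, against a median of -0.56 over all features tested, 33.5% of which lay above 0. The median of the 18 genes was 1.56 in experiment 1 and 0.59 in experiment 2.

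Start codon selection and eIF2 had 5 tested genes, of which 2 were called higher. SUI1 encodes eIF1, which guards against initiation at codons other than AUG. Its ratio was 2.42 and 2.94 on the arrays of 4NQO experiment 1 and 1.15 and 2.18 on those of experiment 2, against -0.22 to 0.67 on the untreated arrays. Every 4NQO array stood above every untreated array, and the 4NQO mean was 2.17 ± 0.72 (SD, n = 2; adjusted p = 0.0165). TIF11 encodes eIF1A, the partner of eIF1 on the small subunit. Its ratio was 2.0, 4.45, 0.95 and 1.63 over the 4NQO arrays in the same order, and 0.95, 1.29, -0.81 and -0.87 over the untreated arrays. The values of experiment 1 were higher than those of experiment 2 in both conditions, and the 4NQO mean was 2.26 ± 1.37 (adjusted p = 0.0232).

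The eIF2 and eIF2B genes of this group were not called with 4NQO. GCD1, an eIF2B subunit gene, stood at 3.08, 2.15, 1.64 and -1.29 over the 4 arrays, for a mean of 1.39 ± 1.72 (adjusted p = 0.113). The swapped array of experiment 2 was the sole one below 0. GCD2, of the same complex, was at -0.82 ± 0.23 (adjusted p = 0.279), and so its mean was below 0 in both conditions. Its 4NQO arrays read 0.09 and -2.05 in experiment 1 and -1.10 and -0.21 in experiment 2. SUI3, the gene of eIF2 beta, was at -0.56 ± 0.49 (adjusted p = 0.469), but its 2 spots did not agree: on the swapped arrays they read -3.02 and 0.61 in experiment 1 and -3.37 and 0.56 in experiment 2. SUI2, the gene of eIF2 alpha, was read on 3 of the 4 arrays, at 0.93, 1.3 and 1.86, and was not tested.

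Of the eIF3 genes, RPG1, which encodes the large scaffold subunit, was the only one with all 4 values. It read 0.90 and 2.26 in 4NQO experiment 1 and -0.24 and 5.09 in experiment 2, for a mean of 2.0 ± 0.59 (SD, n = 2; adjusted p = 0.0246). The swapped arrays were the higher ones in both experiments, and the arrays of experiment 2 lay on opposite sides of 0. Without the swapped array of experiment 2 the mean was 0.67 (adjusted p = 0.492). TIF34, another core subunit gene, was at 1.43, 2.69 and 2.0 on 3 arrays, above all of its untreated values, which lay between 0.20 and 0.51. It was not tested, and the share of all features that separate in this way on 3 arrays was not counted. PRT1, a subunit that binds RNA, was at 0.35, -0.16 and 2.01, and HCR1 at -0.39, 0.64 and 7.43, the last on an array whose dye-swapped partner had no value for it.

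None of the 4 tested genes of cap binding and mRNA unwinding passed. CAF20, which encodes a repressor that competes for the cap-binding protein, came closest: its ratio was 1.71, 1.81, 0.89 and 1.74 over the 4NQO arrays, all above 0, with a mean of 1.54 ± 0.32 (adjusted p = 0.0596). These are averages of 2 spots that differed in experiment 2, at -0.09 and 1.87 on the unswapped and 3.53 and -0.05 on the swapped array, so a spot lay below 0 on both. The spot with a value on all 4 arrays gave 1.22 when spots were not averaged (adjusted p = 0.119). TIF3, the gene of eIF4B, was at 0.55 ± 0.98 (adjusted p = 0.500), with experiments at 1.24 and -0.14. TIF4631 and TIF4632, paralogs that encode the scaffold eIF4G, were at 0.13 ± 0.28 (adjusted p = 0.879) and -0.24 ± 0.05 (adjusted p = 0.767). The 95% confidence intervals of the fit ran from -1.04 to 1.3 and from -1.40 to 0.92, so ratios of about 1 in either direction are within them. The arrays of TIF4631 read -0.04 and 0.69 in experiment 1 and 1.43 and -1.57 in experiment 2. Its small SD thus hides arrays on opposite sides of 0. CDC33, the gene of the cap-binding protein eIF4E itself, was at 0.55, -0.51 and 0.38, and PAB1, the poly(A)-binding protein gene, at -0.70, 0.45 and -0.59, each on 3 arrays and with values on both sides of 0.

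ANB1 was the sole elongation gene tested with 4NQO. Its ratio was 1.26 and 2.56 in experiment 1 and 2.63 and 1.62 in experiment 2, all above 0 and within the untreated range of 0.40 to 3.60. The mean was 2.02 ± 0.15 (SD, n = 2; adjusted p = 0.0310), a factor of 4.05. STM1 was at 0.61, 2.99 and -0.15 on 3 arrays. HEF3, the gene of a second form of the fungal factor eEF3, was read in experiment 1 alone, where its 2 spots read 3.65 and 1.12 on the unswapped and -1.74 and 1.74 on the swapped array. HEF3 shares most of its sequence with YEF3, so its spots are uncertain for that reason too. SUP45 of termination was at 1.25, 0.72, 0.97 and 1.06, the tightest set among the 18 genes, with a mean of 1.00 ± 0.02 that did not pass (adjusted p = 0.208). RLI1, which encodes the factor that splits ribosomes after termination, was at -0.97, 0.20 and -0.16.

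Of the 6 genes tested in tRNA charging, 3 were called higher, 1 was called lower and 2 did not pass. FRS1 encodes a subunit of phenylalanyl-tRNA synthetase. It read 1.48 and 1.59 in 4NQO experiment 1 and 2.83 and 3.35 in experiment 2, against -1.67, 0.70, 0.16 and -0.92 over the untreated arrays. Every 4NQO array stood above every untreated array, and the mean of 2.31 ± 1.10 (SD, n = 2; adjusted p = 0.0148) was the highest among the 18 genes, a factor of 4.97. ARC1 encodes the cofactor that binds tRNA for the methionyl- and glutamyl-tRNA synthetases. It read 1.00, 3.66, 0.86 and 2.53 with 4NQO, again above all of its untreated values of -0.23 to 0.80, with a mean of 2.01 ± 0.45 (adjusted p = 0.0230). GRS1, the glycyl-tRNA synthetase gene, read -0.74, 3.88, 1.44 and 4.03, for a mean of 2.16 ± 0.82 (adjusted p = 0.0199). The swapped arrays of both experiments carried the high values of ARC1 and GRS1, and the unswapped array of experiment 1 was below 0 for GRS1. In both experiments the swapped array was also the higher one for FRS1, SUI1, TIF11 and RPG1, but not for ANB1. The cause was not tested. Without the swapped array of experiment 1 the mean of GRS1 was 1.0 (adjusted p = 0.453).

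ILS1, the isoleucyl-tRNA synthetase gene, had a mean of -2.87 ± 3.30 (adjusted p = 0.0212), but 1 array decides it. Its ratio was -0.79 and -0.28 in 4NQO experiment 1 and -0.24 and -10.2 in experiment 2. The gene has 2 spots, and the value of -10.2 was that of 1 spot, the other having no value on that array. On the other 3 arrays the second spot read -1.43, 0.70 and -0.37. Without the swapped array of experiment 2 the mean of ILS1 was -0.39 (adjusted p = 0.673), and with array medians centred its call was lost too (adjusted p = 0.135).

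The synthetase genes that were tested and did not pass were HTS1 and GLN4, whose experiments lay on opposite sides of 0. HTS1, for histidine, was at 2.64 and 2.52 in 4NQO experiment 1 and -0.48 and -0.70 in experiment 2, for a mean of 0.99 ± 2.24 (adjusted p = 0.269). The arrays of an experiment differed little, unlike the experiments. GLN4, for glutamine, was at 1.55 and -0.51 in the 2 experiments (mean 0.52 ± 1.46, adjusted p = 0.532), and its 2 spots read 1.77 and -1.74 on the unswapped array of experiment 2. CDC60, for leucine, was read on 3 arrays at 1.09, 3.23 and 2.32, and DPS1, for aspartate, on 2 arrays at 2.01 and 1.89. The values of both genes exceeded all of their untreated values, of which the highest were 0.66 and 0.80. For genes with missing arrays, the share of all features that do so was not counted. WRS1, for tryptophan, was at 0.26, 1.59 and 0.07. SES1, TYS1 and VAS1 had 2 values each, between -1.01 and 1.83, and ALA1 and GCN3, the gene of the regulatory subunit of eIF2B, 1 each, at 0.35 and -1.82.

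**Figure D3:**
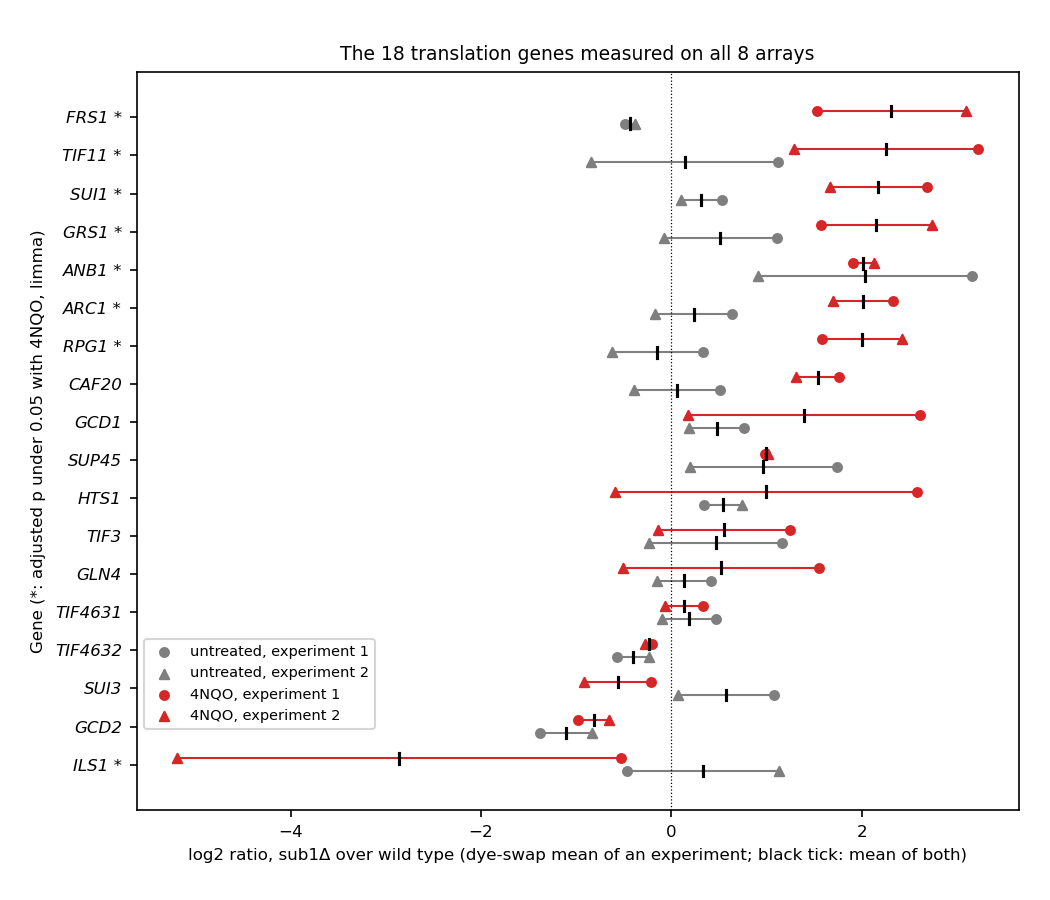
Log2 ratio of sub1Δ over wild type for the 18 translation genes measured on all 8 arrays, as the dye-swap mean of each experiment (circles, experiment 1; triangles, experiment 2) untreated (grey) and with 4NQO (red), with a black tick at the mean of both. Both red points of FRS1, SUI1, ARC1, RPG1, TIF11, GRS1 and CAF20 lie above both grey points, while those of ANB1 lie within its grey range. The share of all features whose experiment means separate in this way was not counted. By the stricter criterion of single arrays, which FRS1, SUI1 and ARC1 meet, it was 6.71% of 1654 features.

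**Figure D4:**
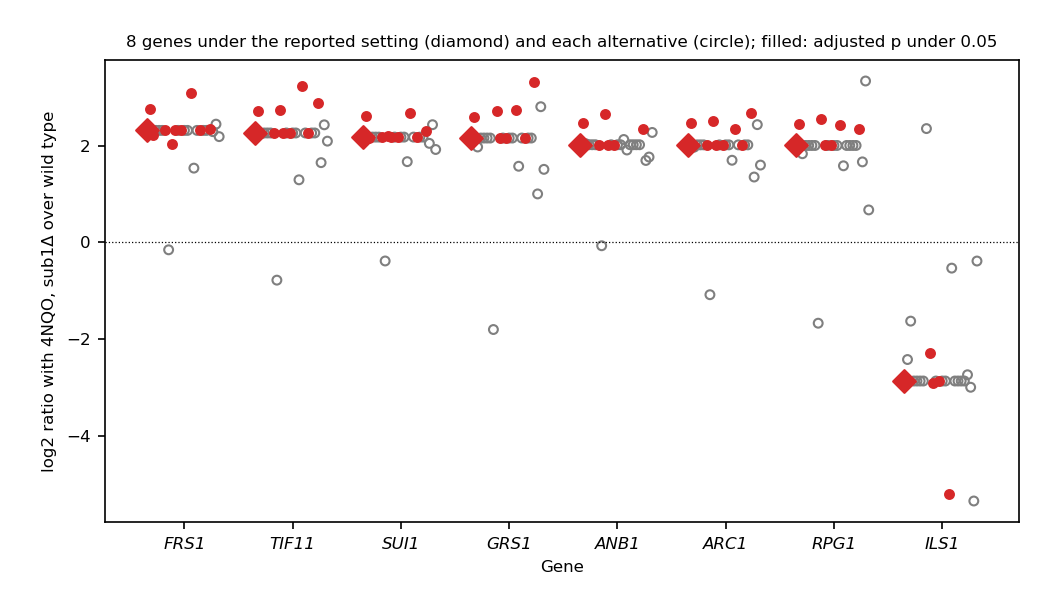
Log2 ratio with 4NQO for the 8 genes called as reported (diamonds) and under each alternative way of processing (circles), filled where the adjusted p was under 0.05. The 7 genes called higher stay above 0 except where the swapped arrays were treated as turned before deposit, and most circles are open.

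The calls with 4NQO depended on the processing. Centring each array on its median moved the median of all features from -0.56 to -0.12. The translation genes lay 1.76 above it either way, because centring shifts every tested feature by the same amount. Over all features the calls then went from 199 higher and 229 lower to 187 higher and 17 lower, and among the translation genes from 7 and 1 to 8 and 0: the 7 genes stayed called higher, CAF20 joined them (adjusted p = 0.0467, on averaged spots) and ILS1 was lost. With the arrays also scaled to a common spread, 2 calls remained, FRS1 and SUI1. No translation gene was called with each condition fitted alone, where 94 of 2194 features were still called. With features on all 8 arrays only, 0 of 1654 features were called, and so no translation gene. With 1 array of a dye swap allowed to stand alone, 0 of 5171 features were called. Leaving out either untreated experiment gave the same test with 4NQO as separate fits. Leaving out a 4NQO experiment leaves 1 value for that condition, so ratios are given here. FRS1, GRS1 and RPG1 were higher in 4NQO experiment 2, at 3.09, 2.74 and 2.42, than in experiment 1, at 1.53, 1.57 and 1.58. ARC1, SUI1 and TIF11 were lower in experiment 2, at 1.70, 1.67 and 1.29, than in experiment 1, at 2.33, 2.68 and 3.23. ANB1 was at 1.91 in experiment 1 and 2.13 in experiment 2, and ILS1 at -0.53 and -5.20. The count of called translation genes was 0 without the unswapped array of untreated experiment 1 or either array of untreated experiment 2. The same held without the swapped array of 4NQO experiment 1 or either array of 4NQO experiment 2. With any of these arrays left out, no feature of the whole table was called with 4NQO, so these losses were not particular to the translation genes. The count was 5 without the swapped array of untreated experiment 1, where 213 features were called.

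The third comparison asked whether the strain ratio itself differed between the conditions. It did not pass for any of the 18 genes with all values, whose smallest adjusted p was 0.256, and 0% of the 1654 features tested were called higher or lower. Unadjusted p-values under 0.05 were reached by 6 of the 18 genes and by 226 of the 1654 features. The ratio was higher with 4NQO than untreated in 14 of the 18 genes, with a median difference of 0.42, against -0.25 over all features. The largest difference in size was that of ILS1, -3.20 (adjusted p = 0.288), which rests on the single array value of -10.2. Among positive differences FRS1 had the largest, 2.74 with a 95% confidence interval of 1.02 to 4.47 (adjusted p = 0.256), followed by RPG1 at 2.15 (0.45 to 3.85), TIF11 at 2.1 (0.23 to 4.01), SUI1 at 1.86 (0.18 to 3.54) and ARC1 at 1.78 (0.10 to 3.46). That of GRS1 was 1.64 (adjusted p = 0.402). In 3 of the 18 genes, FRS1, SUI1 and ARC1, all 4 arrays with 4NQO exceeded all 4 untreated arrays, as did 6.71% of the 1654 features.

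For ANB1, in contrast, the strain ratio was 2.03 untreated and 2.02 with 4NQO, a difference of -0.02 with an interval of -1.83 to 1.79 (adjusted p = 0.995). It was the only one of the 35 genes above 0 on all 8 arrays. SUP45 was also at a like level in both conditions, 0.97 and 1.00, and the interval of its difference ran from -1.69 to 1.75. GCD2 stood at -1.11 and -0.82, with an interval of -1.36 to 1.95. These intervals are wide, so differences of up to about 1.8 in either direction are compatible with the data of ANB1 and SUP45. Without 4NQO experiment 1, the difference passed for FRS1 (adjusted p = 0.0277) and ILS1 (adjusted p = 1.57e-04), the latter resting on the single value of -10.2.

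Other genes of translation, in 6 lists, gave fewer calls. Of 44 such genes with a spot of their own, 17 were tested with 4NQO, with a median of -0.12. Of all features tested, 9.07% were called higher and 10.4% lower. Among these 17 genes 2 were called higher, a share of 11.8% and so near that of all features, and 0 lower. Both belong to the chaperones of the nascent chain: SSB2, which encodes an Hsp70 of the ribosome, at 2.55 ± 2.06 (SD, n = 2; adjusted p = 0.0150), and EGD2, a subunit gene of the nascent polypeptide-associated complex, at 1.66 ± 0.05 (adjusted p = 0.0453). SSB2 read 3.0 and 5.01 in experiment 1 and 0.74 and 1.44 in experiment 2, and it has a near-identical paralog, SSB1. EGD2 read 0.77, 2.62, 1.18 and 2.07, and all 4 of its untreated values lay between -0.59 and 0.10. The median of the 6 chaperone genes tested was 1.44.

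None passed with 4NQO in the 5 remaining lists: 3 factor-modifying enzyme genes (median -0.42), 3 genes of ribosome rescue (0.27), 2 translational regulators (-0.95), 2 mitochondrial synthetase or factor genes (-0.55) and 1 gene of the eIF2 kinase pathway (-0.50). None of the 31 genes of the 6 lists that were tested in untreated cells passed. Among cytosolic ribosomal protein genes, the list most like the factors, 23 of 35 tested were called higher and 1 lower with 4NQO, at a median of 1.84, beside the 7 of 18 and 1.20 of the translation factor and synthetase genes. In untreated cells the ribosomal protein genes had a median of -0.08, with 20 of 47 above 0, and the translation factor and synthetase genes a median of 0.38, with 27 of 32 above 0. Whether these lists differ was not tested.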

How the data were processed

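Per the series' design text, the authors read the spotted open reading frame arrays on a GenePix scanner, removed local background, applied LOWESS with a smooth parameter of 0.33 and deposited log2 ratios of Cy3 over Cy5; the submitters' processing notes name limma 2.12.0. No source used here says whether swapped arrays had been turned. Arrays with sub1Δ in Cy5 were multiplied by -1, spots of a gene were averaged (6216 spots, 5999 features; 387 spots had several symbols and 2485 none), and the 2 arrays of a dye swap were averaged where both had a value. RefSeq's R64 table left the symbols of all 35 genes as annotated. Coordinates are left out because the array's genome build is unnamed.

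A single fit across all features with limma 3.58.1 (R 4.3.3; lmFit and eBayes, prior degrees of freedom 16.8) estimated a ratio for each condition and their difference. A feature was tested where all dye-swap means of the comparison existed. Tests were 2-sided, p-values were Benjamini-Hochberg adjusted over all features tested, and 0.05 was the threshold. Features measured in 1 condition only take their spread from it. The procedure was also run on simulated data with independent normal noise around 0. Such data have no shift of whole arrays, so they cannot show how reliable the calls with 4NQO are.

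The genes, roles and lists were chosen with earlier results of these data known. The text names genes called in any comparison, those of smallest p in each role, paralog pairs, genes of 1 sign on all arrays and, added after their values were seen, the other genes read on too few arrays. Alternatives were centring, scaling, separate fits, missing values, dye direction, unaveraged spots or arrays, spot blocks, a replicate block and leaving out each experiment or array. Promoter motifs were not analysed here.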

Additional observations from a re-analysis of the deposited data

Results flagged for a closer look

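In 5 of the 50 sets of 4 arrays that could be examined (a gene in a condition), 1 array stood apart from the other 3 by more than Dixon's 95% critical value for its gap over the range. Chance alone flags about 1 in 20 such sets. ILS1 with 4NQO read -10.2 on the swapped array of experiment 2, and its other arrays lay between -0.79 and -0.24. CAF20 with 4NQO read 0.89 on the unswapped array of experiment 2, the others lying between 1.71 and 1.81. That 0.89 is the mean of spots at -0.09 and 1.87, and the 1.74 on the swapped array of the same experiment that of spots at 3.53 and -0.05. In untreated cells GRS1 read 2.05 on the swapped array of experiment 1 (others -0.21 to 0.16), STM1 -0.43 on the unswapped array of experiment 2 (others 1.20 to 1.28) and TIF34 0.51 on the swapped array of experiment 1 (others 0.20 to 0.24). The causes of these values were not tested.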

How the results depend on the processing

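In untreated cells the count of called translation genes was 0 under 20 of 23 alternatives and 1, ANB1, with each condition fitted alone; leaving out an experiment or array gave 0 to 1. With 4NQO the count of 8 became 2 with arrays centred and scaled, and 0 with each condition fitted alone, features on all 8 arrays only, 1 array of a dye swap standing alone, or the swaps taken as already turned. It ranged from 0 to 7 when an experiment or array was left out, and from 6 to 10 under the other alternatives apart from the replicate block. Over all features the 428 calls with 4NQO became 204 centred, 106 centred and scaled, 94 with each condition fitted alone, 239 with 4 arrays as separate values and 0 with features on all 8 arrays, a lone array allowed or the swaps taken as already turned; the share called higher, 46.5%, was 91.7% centred, 85.8% scaled and 69.6% with spot blocks centred. With the experiment number as a replicate block the count of translation genes was 0, and no feature of the whole table passed with 4NQO. The labels do not say that the experiments of the 2 conditions were paired, and the deviations of same-numbered experiments correlated at 0.0998 over 1654 features. For the difference the count was 0, except for 2 without 4NQO experiment 1. The median with 4NQO, 1.20, kept its sign under 21 of 22 alternatives, and was 0.55 without 4NQO experiment 1 and 1.53 without experiment 2. Taking the swaps as already turned reversed the medians to -0.16 untreated and -0.11 with 4NQO. It also turned ANB1 (-0.48 untreated, -0.071 with 4NQO), ARC1 (-1.08), FRS1 (-0.15), GRS1 (-1.80), RPG1 (-1.67), SUI1 (-0.39), TIF11 (-0.78) and ILS1 (2.35), none of which passed. The median difference between conditions, 0.42, was 0.77 centred, 0.82 centred and scaled, 0.78 with spot blocks centred, 0.11 with the swaps taken as already turned, and 0.71 with only that of untreated experiment 2 so taken, an alternative added after the data were seen. It was 0.12 to 1.02 with an experiment or array left out. Apart from the samples or features removed, the causes were not tested. Without intensities, signal over background could not be read, and neither background correction nor a filter on dim spots was varied.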

Other observations

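The 2 arrays of a dye swap differed by a median of 0.84 for the translation genes in untreated experiment 1 and 0.37 in untreated experiment 2, against 0.80 and 0.67 for all features. With 4NQO the medians were 1.15 and 1.00, against 1.06 and 1.19. The sign of the ratio was the same on both arrays for 24 of 32 and 25 of 34 genes untreated, and for 19 of 27 and 12 of 20 genes with 4NQO, where all features gave 61.5%, 56.4%, 62.8% and 71.8% in the same order. Untreated experiment 2 was thus the one where the arrays of these genes lay closest together, and it was also the one where their median was nearest to 0. Over all features, however, its arrays correlated at -0.20 (Pearson) once turned to the same direction, where those of the other experiments correlated at 0.20, 0.26 and 0.33. By rank (Spearman) the arrays of untreated experiment 2 correlated at 0.05, and those of the others at 0.25, 0.30 and 0.38. The negative sign was thus not seen in the ranks. Features are not independent replicates, and whether the swap of untreated experiment 2 had been turned before deposit was not tested.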
